A study of Mus musculus with 6 samples.

Results

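The surface antigens by which mesenchymal stem and stromal cells are recognised or sorted were examined in the mouse osteosarcoma line mOS482. They were Ly6a, Cd34, Pdpn, Vcam1, Mcam, Pdgfra, Pdgfrb, Thy1, Eng and Alcam. All probe sets of the deposited matrix whose gene symbol column names exactly 1 gene, and that gene one of these 10, were taken. This gave 16 of the 22690 probe sets on the array, and 10 of the 13213 genes that could be tested. Vcam1 had 3 probe sets, Pdgfra, Pdgfrb, Eng and Alcam had 2 each, and Ly6a, Cd34, Pdpn, Mcam and Thy1 had 1 each. In 0 cases did a probe set name one of these genes together with another gene.

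The RNA came from mOS482 cells stably infected with a Sox2 shRNA, 3 arrays, or with a scrambled shRNA, 3 arrays. Per the labels, mOS482 was derived from a spontaneous tumour of a mouse lacking RB and p53, so both groups carry those losses, and both went through hygromycin selection. Each group was 1 infected line grown as triplicate plates, so p-values cover variation among plates and their arrays only, and none among independent lines or hairpins. The series title places the comparison in a study of Sox2 in osteosarcoma stem cells.

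Mesenchymal stem cells are a functional class of stromal cells that can form bone, cartilage and fat, and no single surface protein defines them. Sorting therefore combines antigens. Ly6a (Sca-1) and Pdgfra together mark a perivascular population of mouse bone marrow, Mcam (CD146) and Pdgfrb mark perivascular cells, and Thy1 (CD90), Eng (CD105), Alcam (CD166) and Vcam1 (CD106) are used on cultured stromal cells. Cd34 and Ly6a are also known from haematopoietic stem cells, and Cd34, Mcam and Eng from endothelium, so none of the 10 belongs to mesenchymal cells alone. All 10 were annotated to a membrane in the deposited table. The terms placed 6 on the external side of the plasma membrane, all but Pdpn, Mcam, Pdgfra and Pdgfrb. Ly6a, Vcam1 and Thy1 carried an anchored-to-membrane term, and 8 genes, all but Ly6a and Thy1, an integral-to-membrane term.

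The stretches upstream of the gene starts are shown for Pdpn, the antigen that rose most, for Cd34, the one that fell, and for Eng, which did not pass the test. Promoters were taken from RefSeq (GRCm38.p6), which matched 6 of the 10 genes in the promoter table given here, namely Cd34, Pdpn, Mcam, Pdgfra, Eng and Alcam. Each sequence is the 250 bases before the start, on the strand of the gene. Capitals mark ACAAAG, a sequence bound by SOX family proteins.
Pdpn, chr4:143299565-143299814, minus strand: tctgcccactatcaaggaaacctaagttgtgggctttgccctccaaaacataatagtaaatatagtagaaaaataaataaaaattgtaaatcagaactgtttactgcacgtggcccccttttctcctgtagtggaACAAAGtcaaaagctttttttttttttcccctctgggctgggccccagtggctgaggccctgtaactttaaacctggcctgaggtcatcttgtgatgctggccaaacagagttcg
Cd34, chr1:194938571-194938820, plus strand: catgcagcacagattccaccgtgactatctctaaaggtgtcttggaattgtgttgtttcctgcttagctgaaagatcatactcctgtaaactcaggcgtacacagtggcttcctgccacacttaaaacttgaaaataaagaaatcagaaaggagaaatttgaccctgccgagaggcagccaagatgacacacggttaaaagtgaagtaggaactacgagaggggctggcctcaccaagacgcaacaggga
Eng, chr2:32646345-32646594, plus strand: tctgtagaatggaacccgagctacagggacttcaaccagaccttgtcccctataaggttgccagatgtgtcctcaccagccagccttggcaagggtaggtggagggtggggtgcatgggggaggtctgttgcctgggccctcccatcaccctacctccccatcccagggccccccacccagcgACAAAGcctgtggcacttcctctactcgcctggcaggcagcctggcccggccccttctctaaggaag
ACAAAG, searched on both strands, lay 115 to 110 bases before the Pdpn start and 67 to 62 bases before the Eng start, and so in 2 of 6 promoters, while 16.5% of 32851 promoters held it. The other 5 motifs were found in 0 of the 6. They were a consensus of NF-kB (held by 1.41% of promoters), one of the interferon-stimulated response element (2.98%), TTCNNNGAA (gamma-interferon activation site, 7.02%), GGAATG (TEAD, 12.6%) and TATAAA (a core promoter element, 12.4%). The 2 matches lay in different promoters, so no overlap of motifs was possible. The Pdpn stretch was 43.2% GC, that of Cd34 46.4% and that of Eng 62.4%, against a median of 52.4% over all promoters. The search describes these letters in these windows and says nothing about binding.

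The deposited values were RMA values on a log scale, taken as log2, that had been centred for each probe set close to the scrambled arrays. A value is therefore a log2 difference from that centre and not a level, and whether an antigen was above background in these cells cannot be read from it. Scrambled array 2 held exactly 0 in 37.5% of the probe sets tested. Each difference below is the Sox2 shRNA mean less the scrambled mean, in log2 units, with limma's SE, n = 3 arrays per group and p-values adjusted by Benjamini-Hochberg over all 21556 probe sets or all 13213 genes tested. A difference was called where the adjusted p was under 0.05. The Sox2 shRNA arrays correlated with each other at Pearson's r of 0.812 to 0.911 over probe sets, a description only. Sox2 shRNA array 1 stood apart in its controls: its bacterial spike-in probe sets bioB, bioC and bioD averaged 1.49, against 0.67 and 0.65 on Sox2 shRNA arrays 2 and 3 and 0.28, -0.14 and -0.26 on the scrambled arrays. The 5′ minus 3′ value of beta-actin, a measure of RNA integrity and labelling, was -1.55, -0.65 and -0.58 on the Sox2 shRNA arrays, against -0.32, 0.027 and 0.32 on the scrambled arrays.

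Sox2, the target of the hairpin, had 1 probe set (1416967_at), with 0.17, 0.055 and 0.58 on Sox2 shRNA arrays 1 to 3, against 0.069, -0.039 and -0.033 on scrambled arrays 1 to 3. The groups overlapped, the difference was 0.27 ± 0.15 (SE, limma adjusted p = 0.180), and no reduction of Sox2 RNA was measured in the libraries labelled Sox2 shRNA. The labels are used below as given.

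Of the 10 antigen genes, 6 rose in Sox2 shRNA cells, namely Pdpn, Vcam1, Ly6a, Mcam, Pdgfra and Pdgfrb. Cd34 fell, and Eng, Thy1 and Alcam did not pass the test. The median difference over the 10 genes was 0.71, beside 0.078 over all 13213 genes, of which 16.8% were called higher and 21.8% lower. Of the 16 probe sets, 8 were called higher and 1 lower, and 7 did not pass, with a median of 0.63 beside 0.075 over all probe sets, of which 14.6% were called higher and 20.5% lower. At a difference of at least 2-fold in addition, 7 probe sets were higher and 1 lower, where 2.76% and 4.95% of all probe sets were. The groups of arrays did not overlap for 10 of the 16 probe sets, 9 higher and 1 lower, while 26.5% of all probe sets were higher and 26.9% lower without overlap. Across the alternatives 4 to 7 antigen genes were called higher, and Cd34 was called lower in each.

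**Figure D1:**
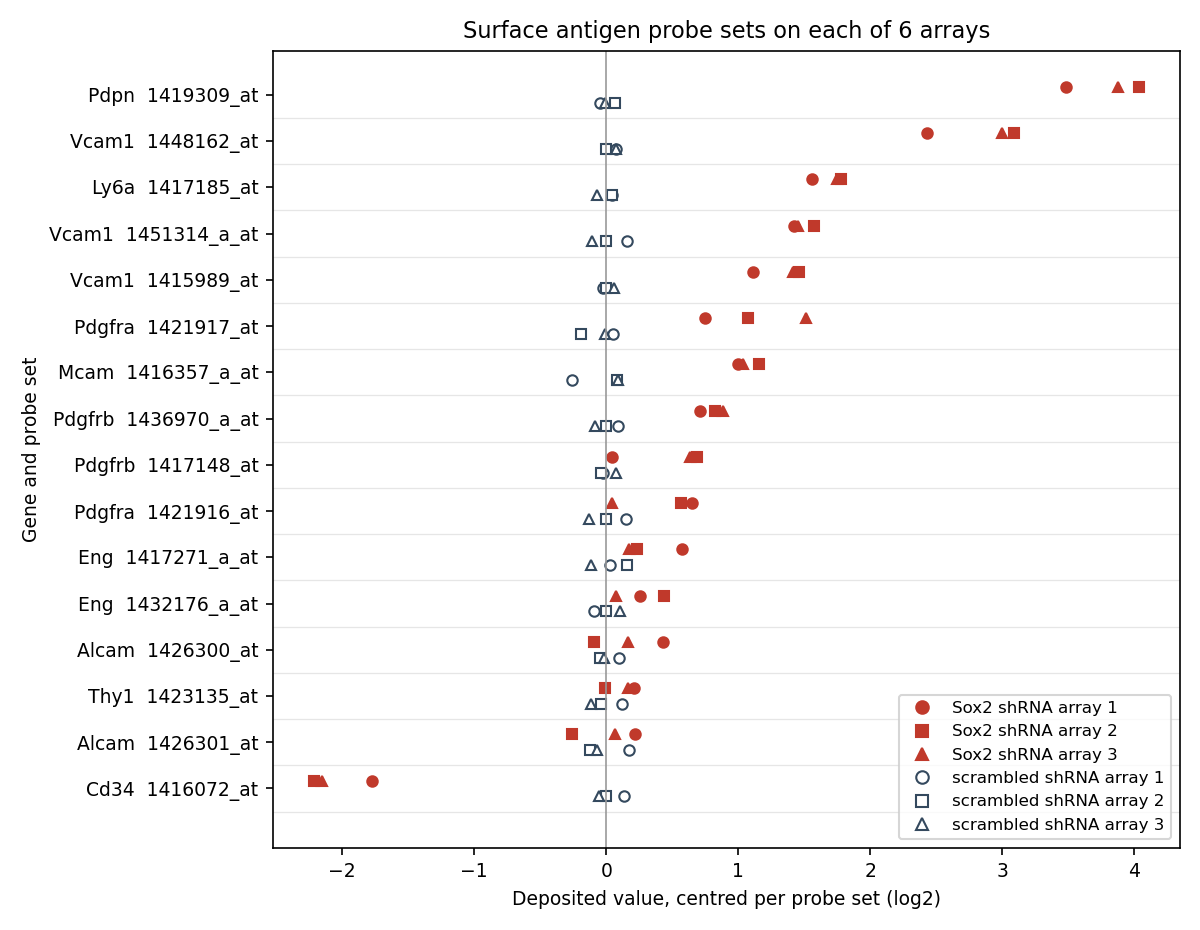
Deposited values of the 16 probe sets of the 10 antigens on each array, as log2 differences from the centre of the probe set (horizontal axis), with 3 Sox2 shRNA arrays and 3 scrambled shRNA arrays as points. The Pdpn points of the Sox2 shRNA arrays lie farthest to the right, between 3.48 and 4.03, and those of Cd34 lie between -2.21 and -1.77, while the points of Thy1 and Alcam overlap between the groups.

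Pdpn encodes podoplanin, a mucin-type sialoglycoprotein of lymphatic endothelium, osteocytes and stromal cells that binds the platelet receptor CLEC-2 and links to ezrin and moesin inside the cell. Its probe set, 1419309_at, lies on the minus strand of chromosome 4 from 142857330 to 142889382 in the deposited alignments, which name no genome build. It had 3.48, 4.03 and 3.87 on Sox2 shRNA arrays 1 to 3, against -0.050, 0.065 and -0.0095 on scrambled arrays 1 to 3. The lowest Sox2 shRNA array was more than 3 log2 units above the highest scrambled array. The difference was 3.80 ± 0.15, with a 95% confidence interval of 3.46 to 4.14, which is 13.9-fold higher (limma adjusted p = 3.7e-06). It was the 20th highest of the 21556 probe sets tested.

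Vcam1 encodes the immunoglobulin-domain receptor of integrin alpha4beta1 (Itga4), by which stromal and endothelial cells hold leukocytes and haematopoietic progenitors, and all 3 of its probe sets rose. 1448162_at had 2.43, 3.09 and 3.00 on the Sox2 shRNA arrays, against 0.076, 0 and 0.074 on the scrambled arrays, a difference of 2.79 ± 0.17 or 6.92-fold (limma adjusted p = 3.2e-05). 1451314_a_at had 1.42, 1.57 and 1.45 on the Sox2 shRNA arrays, against 0.16, 0 and -0.11 on the scrambled arrays, a difference of 1.47 ± 0.11 or 2.76-fold (limma adjusted p = 7.8e-05). 1415989_at had 1.11, 1.46 and 1.42 on the Sox2 shRNA arrays, against -0.023, 0 and 0.059 on the scrambled arrays, a difference of 1.32 ± 0.12 or 2.50-fold (limma adjusted p = 1.8e-04). The groups did not overlap for any of the 3, and the mean over them was 1.86 ± 0.11 (2.79 where the probe set of largest variance stood for the gene).

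The 3 Vcam1 probe sets did not move by the same amount. Set against the mean of the other Vcam1 probe sets, 1448162_at rose by 1.4 ± 0.15 more (limma adjusted p = 0.0015), 1415989_at by less, at -0.81 ± 0.13 (limma adjusted p = 0.0055), and 1451314_a_at also by less, at -0.59 ± 0.16 (limma adjusted p = 0.0297). These were 3 of the 11 probe sets of antigens with more than 1 that departed from the others of their gene, while 26.4% of all such probe sets did. The departures of a gene's probe sets cancel out by construction, so these are not 3 separate results. A high 1448162_at by itself lowers the departures of the others. Probe sets 1415989_at and 1448162_at aligned to the same span, chromosome 3 from 115812868 to 115832604 on the minus strand. 1451314_a_at aligned to 115825989 to 115832375, the 5′ portion of that span. A shorter, lipid-anchored form of Vcam1 is known in the mouse, and the deposited table does not say which form each probe set reads. The departure of 1448162_at was called under each of 17 alternatives, whereas that of 1451314_a_at was no longer called without any 1 of the scrambled arrays or without Sox2 shRNA array 2 or 3 (adjusted p up to 0.108). That of 1415989_at was no longer called with either covariate for the control probe sets (adjusted p up to 0.113).

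Ly6a encodes stem cell antigen 1, a lipid-anchored protein of the Ly6 family used to sort mouse stem and progenitor cells. Its probe set, 1417185_at on chromosome 15 from 74825306 to 74828417 on the minus strand, had 1.56, 1.78 and 1.75 on the Sox2 shRNA arrays, against 0.043, 0.042 and -0.071 on the scrambled arrays. The groups were far apart beside the spread within each. The difference was 1.69 ± 0.10, or 3.23-fold higher (limma adjusted p = 3.2e-05), the 213th highest of all probe sets. Ly6 genes resemble each other in sequence, and binding of a paralogue's RNA to this probe set was not tested.

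Mcam encodes CD146, an adhesion molecule of pericytes, endothelium and bone marrow stromal progenitors. Its probe set, 1416357_a_at on chromosome 9 from 43942743 to 43950810 on the plus strand, had 0.999, 1.16 and 1.03 on the Sox2 shRNA arrays, against -0.26, 0.081 and 0.091 on the scrambled arrays. Scrambled array 1 was the lowest of the scrambled arrays, and the groups did not overlap. The difference was 1.09 ± 0.12, or 2.13-fold higher (limma adjusted p = 5.3e-04).

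Pdgfra and Pdgfrb are the tyrosine kinase receptors of the platelet-derived growth factors, of mesenchymal progenitors and of pericytes and fibroblasts. Pdgfra rose as a gene, with 0.70, 0.82 and 0.78 on the Sox2 shRNA arrays, against 0.10, -0.096 and -0.072 on the scrambled arrays, a difference of 0.79 ± 0.090 or 1.73-fold (limma adjusted p = 4.9e-04). Both of its probe sets lie at 75548360 to 75594231 of chromosome 5, plus strand, but only 1421917_at was called. It had 0.75, 1.07 and 1.51 on the Sox2 shRNA arrays, against 0.050, -0.19 and -0.012 on the scrambled arrays, a difference of 1.16 ± 0.19 (limma adjusted p = 0.0025). 1421916_at had 0.65, 0.57 and 0.042 on the Sox2 shRNA arrays, against 0.15, 0 and -0.13 on the scrambled arrays, and the groups overlapped. Its difference was 0.41 ± 0.17, with an interval of 0.016 to 0.81 (limma adjusted p = 0.0974). Leaving out Sox2 shRNA array 3 gave 0.60 (limma adjusted p = 0.0109). With a covariate for the control probe sets it was near 0, at -0.061 for the spike-in controls (limma adjusted p = 0.897) and 0.029 for beta-actin (limma adjusted p = 0.946). On Sox2 shRNA array 3 this probe set was the lowest of its group, where 1421917_at was the highest of its group, so the gene means of the 3 arrays lay close together. The departure of 1421917_at from 1421916_at was 0.75 ± 0.31 and did not pass (limma adjusted p = 0.109).

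Pdgfrb rose as a gene by 0.63 ± 0.12, or 1.55-fold (limma adjusted p = 0.0048), with 0.38, 0.76 and 0.76 on the Sox2 shRNA arrays, against 0.036, -0.020 and -0.0053 on the scrambled arrays. 1436970_a_at, which aligned only at the 3′ end of the span of the other probe set, was called. It had 0.71, 0.83 and 0.89 on the Sox2 shRNA arrays, against 0.093, 0 and -0.082 on the scrambled arrays, a difference of 0.80 ± 0.10 (limma adjusted p = 8.5e-04). 1417148_at had 0.042, 0.69 and 0.63 on the Sox2 shRNA arrays, against -0.021, -0.039 and 0.072 on the scrambled arrays. Its Sox2 shRNA array 1 lay within the scrambled range. The difference was 0.45 ± 0.17, with an interval of 0.052 to 0.85 (limma adjusted p = 0.0773). Leaving out Sox2 shRNA array 1 gave 0.66 (adjusted p = 7.2e-04). Array 1 was also the array with the lowest 5′ minus 3′ value of beta-actin. With that value as a covariate the difference was 0.94 (limma adjusted p = 0.012), and with the spike-in controls as a covariate 1.04 (limma adjusted p = 0.0133).

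The receptors were compared with each other by the gene value of Pdgfra minus that of Pdgfrb, which was 0.32, 0.062 and 0.018 on the Sox2 shRNA arrays, against 0.066, -0.076 and -0.067 on the scrambled arrays. The groups overlapped, and the difference of 0.16 had a two-sided exact permutation p of 0.3, where 3 arrays against 3 cannot go below 0.1. An unequal change of the receptors was not detectable with these arrays. Of the 4 ligands, Pdgfc fell by 0.57 ± 0.075 (limma adjusted p = 9.1e-04), with probe sets between -1.01 and -0.13. Pdgfd was 0.68 ± 0.20 higher (limma adjusted p = 0.0281), a call that was lost on leaving out any 1 scrambled array or Sox2 shRNA array 2 or 3. Its difference was 0.93 without Sox2 shRNA array 1, 1.36 with the spike-in covariate and 1.22 with the beta-actin covariate, and it was called in these 3 settings. Pdgfb (0.17) and Pdgfa (0.027) did not pass.

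Cd34 encodes a sialomucin of haematopoietic, endothelial and some stromal progenitors, and it was the antigen that fell. Its probe set, 1416072_at on chromosome 1 from 196765084 to 196787478 on the plus strand, had -1.77, -2.21 and -2.15 on the Sox2 shRNA arrays, against 0.13, 0 and -0.054 on the scrambled arrays. All 3 Sox2 shRNA arrays lay more than 1 log2 unit below every scrambled array. The difference was -2.07 ± 0.14, with an interval of -2.39 to -1.76, or 4.21-fold lower (limma adjusted p = 4.6e-05). It was the 44th lowest of all probe sets and the 18th lowest of all genes.

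Eng, Thy1 and Alcam did not pass the test, and all 5 of their probe sets had intervals that included 0. Eng encodes endoglin, a co-receptor of the TGF-beta family. 1417271_a_at, on chromosome 2 from 32502114 to 32538189, had 0.57, 0.23 and 0.18 on the Sox2 shRNA arrays, against 0.026, 0.15 and -0.11 on the scrambled arrays, without overlap but with a difference of 0.30 ± 0.14 (interval -0.0096 to 0.62, limma adjusted p = 0.117). 1432176_a_at, aligned from 32535798 to 32538154, had 0.26, 0.44 and 0.072 on the Sox2 shRNA arrays, against -0.091, 0 and 0.11 on the scrambled arrays, a difference of 0.25 ± 0.12 (interval -0.033 to 0.53, limma adjusted p = 0.146). The mean of both was 0.28 ± 0.10, with an unadjusted interval of 0.045 to 0.51 that left out 0 (limma adjusted p = 0.0602). For this Eng gene value the groups did not overlap. It was called with array weights (0.24, adjusted p = 0.0451) and without Sox2 shRNA array 3 (0.36, adjusted p = 0.0205). With a covariate for the spike-in controls it lay at 0.11 (adjusted p = 0.682).

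Thy1 encodes a lipid-anchored glycoprotein of fibroblasts, neurons and T cells. Its probe set, 1423135_at on chromosome 9 from 43853761 to 43856662, had 0.21, -0.0070 and 0.17 on the Sox2 shRNA arrays, against 0.12, -0.039 and -0.12 on the scrambled arrays. The groups overlapped, and the difference was 0.14 ± 0.11 with an interval of -0.12 to 0.39 (limma adjusted p = 0.356). Alcam encodes an adhesion molecule that binds CD6 on T cells, and both of its probe sets aligned to chromosome 16 from 52250638 to 52453108. 1426300_at had 0.43, -0.092 and 0.17 on the Sox2 shRNA arrays, against 0.094, -0.047 and -0.016 on the scrambled arrays, a difference of 0.16 ± 0.14 with an interval of -0.17 to 0.49 (limma adjusted p = 0.399). 1426301_at had 0.22, -0.26 and 0.066 on the Sox2 shRNA arrays, against 0.17, -0.12 and -0.071 on the scrambled arrays, a difference of 0.015 ± 0.15 with an interval of -0.33 to 0.36 (limma adjusted p = 0.947). Both Alcam probe sets were lowest on Sox2 shRNA array 2 and the groups overlapped. The 95% intervals of all 5 probe sets of Eng, Thy1 and Alcam lay within a 2-fold change in either direction.

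**Figure D2:**
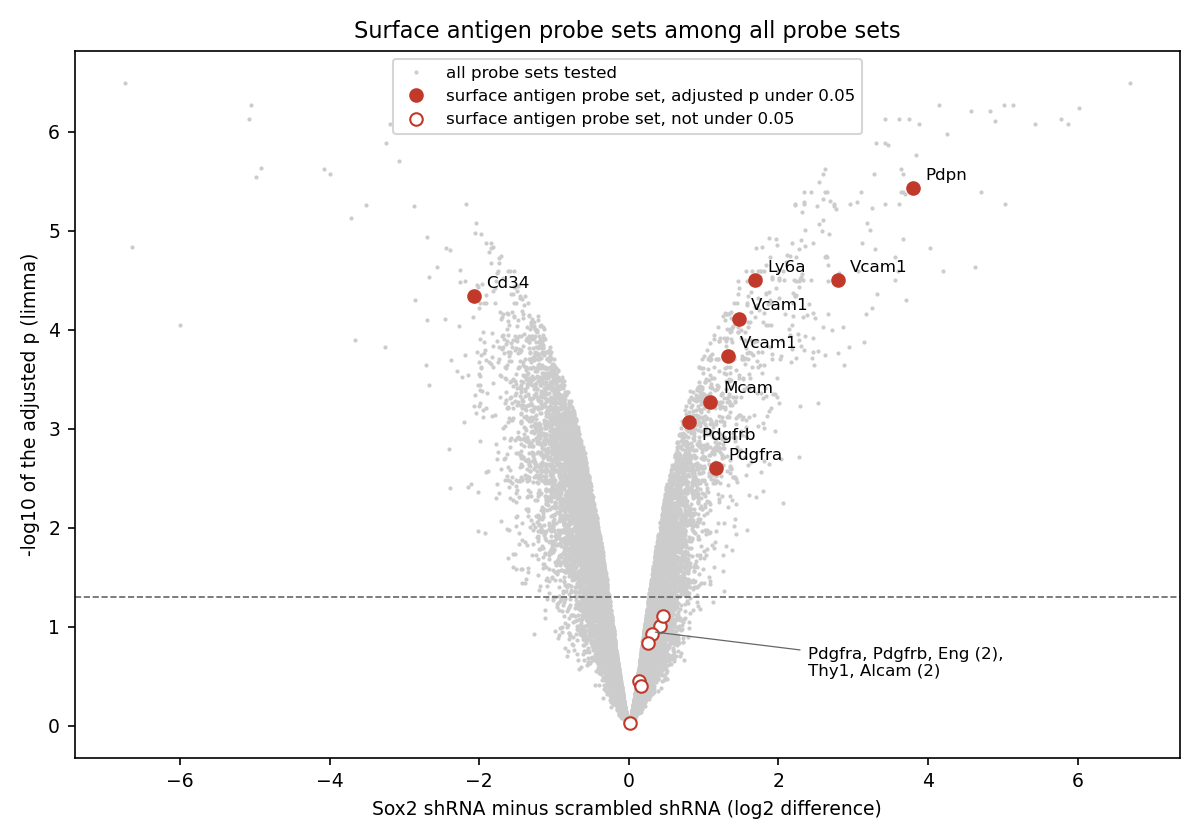
Log2 difference, Sox2 shRNA minus scrambled shRNA (horizontal axis), against minus log10 of the limma adjusted p (vertical axis) for the 16 probe sets of the antigens, over all probe sets tested. The 8 probe sets called higher and the 1 of Cd34 called lower lie above the line of the threshold, with Pdpn at 3.80 and Cd34 at -2.07, and the other 7 lie under it.

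The control probe sets differed between the groups, so the fits were repeated with the mean of the 45 spike-in and hybridisation probe sets as a covariate, and with the 5′ minus 3′ value of beta-actin, a choice made after seeing the data. Neither covariate overlapped between the groups, so these fits cannot separate the state of the controls from the hairpin. The 7 called genes stayed called, and with the same sign, in both fits. With the spike-in covariate Pdpn was at 4.24, Vcam1 at 2.14, Ly6a at 1.84, Mcam at 1.32, Pdgfrb at 0.96, Pdgfra at 0.79 and Cd34 at -2.52. With the beta-actin covariate they were at 4.15, 2.08, 1.79, 1.29, 0.89, 0.79 and -2.44 in the same order. Without Sox2 shRNA array 1, the array farthest from the others in these controls, 9 probe sets and 6 genes were higher and 1 of each lower. Calls over all probe sets also changed with the array left out, as given in the last section.

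**Figure D3:**
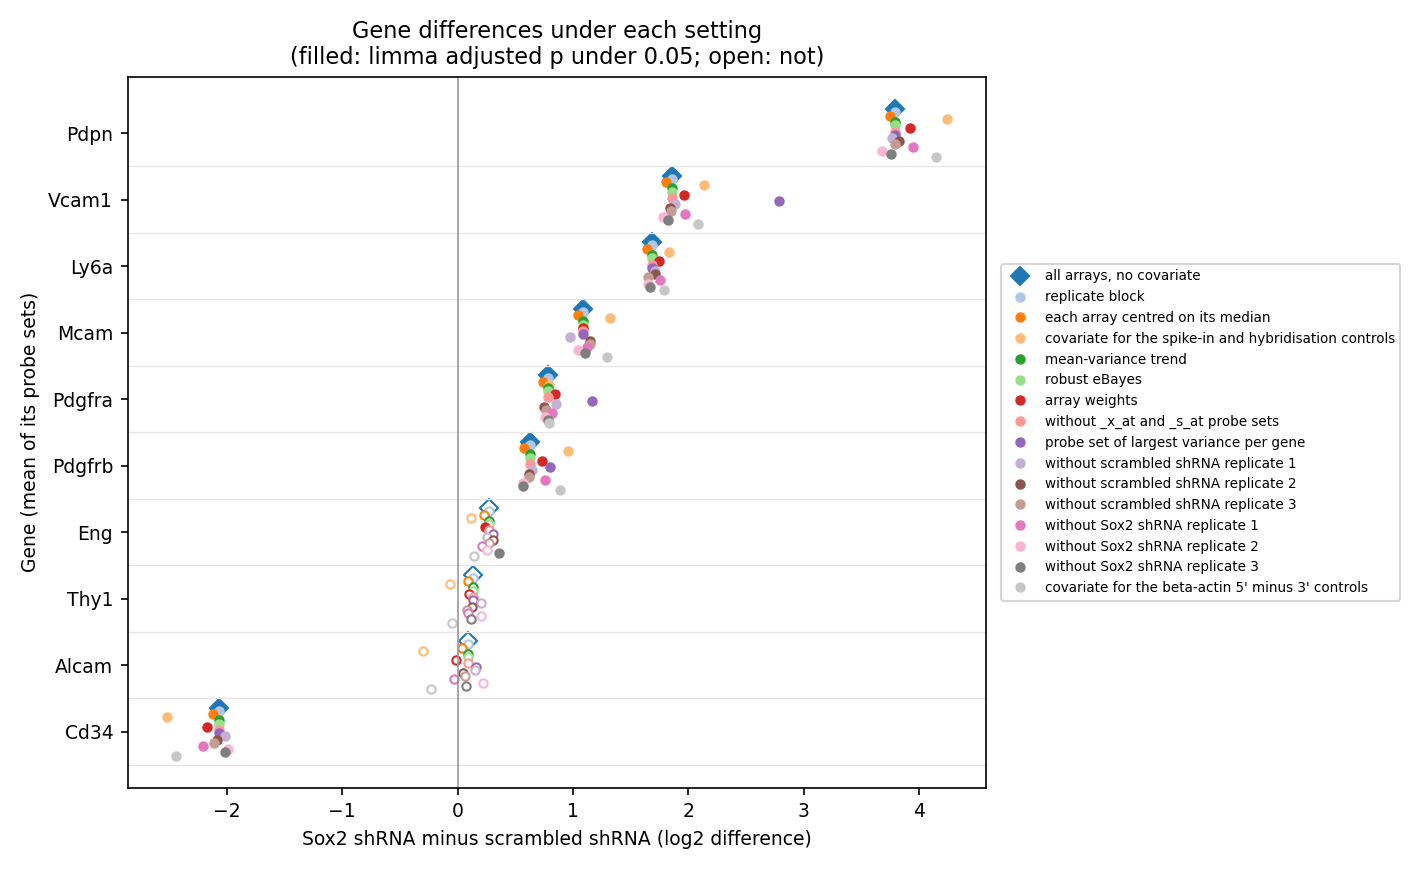
Log2 difference, Sox2 shRNA minus scrambled shRNA (horizontal axis), of the 10 antigen genes under the main setting and the alternatives, with filled points where the limma adjusted p was under 0.05. Pdpn stays between 3.68 and 4.24 and Cd34 between -2.52 and -1.99, while Thy1 and Alcam lie on both sides of 0.

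A list of other surface antigens of mesenchymal stromal cells was counted in the same fit. Of 15 measured, 3 were called higher and 0 lower, where 16.8% and 21.8% of all genes were. Their median was 0.25 beside 0.078 over all genes. Anpep (CD13, an aminopeptidase) was 0.60 ± 0.099 higher (limma adjusted p = 0.0025) and Nt5e (CD73, an ecto-nucleotidase) 0.60 ± 0.11 (limma adjusted p = 0.0039), but Nt5e was at 0.34 and 0.38 and not called with the spike-in and beta-actin covariates. The third, Bst1, was 0.33 higher (limma adjusted p = 0.0197) and was no longer called without any 1 of the scrambled arrays or with either covariate (0.28 in both). Its probe sets were at 0.096 and 0.56. F3, tissue factor, had a difference of 0.63 (limma adjusted p = 0.0541) and was called without Sox2 shRNA array 1 (0.90) and with the spike-in (1.41) and beta-actin (1.28) covariates.

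Of the 17 ligands and partners of the antigens, 3 were called higher and 1 lower, where 16.8% and 21.8% of all genes were. Their median was 0.087. Lama4, a laminin chain bound by CD146, was 1.16 ± 0.089 higher (limma adjusted p = 7.7e-05), with its probe sets between 0.32 and 2.01. Tgfb2, a ligand of the TGF-beta family, was 0.40 higher (limma adjusted p = 0.0073), and not called with the spike-in covariate (0.46). Its probe sets ranged from 0.13 to 0.62. The other ligands of this family in the list, Tgfb1 (-0.16), Tgfb3 (-0.36) and Gdf2 (0.29), did not pass. Clec1b, which encodes the podoplanin receptor CLEC-2, was 0.44 higher (limma adjusted p = 0.0256) and lost the call without any 1 scrambled array and with either covariate, at 0.088 for the spike-in controls and 0.14 for beta-actin. Msn, moesin, which binds the podoplanin tail, was lower, at -0.49 (limma adjusted p = 0.0155), and lost the call without scrambled array 3 and with either covariate (-0.25 and -0.26). Its probe sets were at -0.80 and -0.18.

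Other members of the Ly6 family were measured by 8 genes of 14 listed, and 1 was called, where 16.8% of all genes were called higher and 21.8% lower. Slurp1 was 0.63 higher (limma adjusted p = 0.0426), a call lost without any 1 scrambled array or Sox2 shRNA array 2. With the covariates it was not called, at -0.093 for the spike-in controls and 0.078 for beta-actin, so the sign turned with the spike-in covariate. Ly6m (0.27), Ly6f (0.20) and Lynx1 (-0.21) did not pass, and the median of the 8 was 0.12. Of 13 other adhesion molecules of the immunoglobulin superfamily, 2 were higher and 2 lower, beside the same shares of all genes, with a median of 0.18. Icam1, a leukocyte adhesion receptor like Vcam1, was 0.96 ± 0.15 higher (limma adjusted p = 0.0019) and Ncam1 was 0.40 higher (limma adjusted p = 0.0071). The 6 Ncam1 probe sets ranged from 0.058 to 0.85. With the spike-in and beta-actin covariates Icam1 was at 0.49 and 0.60 and Ncam1 at 0.43 and 0.41, and neither was called. Nectin3 was at -0.54 (limma adjusted p = 0.0096) and F11r at -0.42 (limma adjusted p = 0.0140), the call on F11r being lost without scrambled array 2 or 3. The probe sets of both genes went opposite ways, between -1.81 and 0.27 for Nectin3 and at -0.999 and 0.17 for F11r. Neither was called with the spike-in or beta-actin covariate, where Nectin3 was at -0.24 and -0.30 and F11r at -0.42 and -0.41.

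Markers of the other cell types that share these antigens were counted in the same way, beside 16.8% of all genes called higher and 21.8% lower. Since the values are centred, it cannot be read which of them are at background. Of 7 pericyte markers, 4 were higher and 0 lower, with a median of 0.40. Acta2, smooth muscle actin, was 1.4 ± 0.092 higher (limma adjusted p = 3.7e-05), although its probe sets ranged between 0.063 and 2.75. Des, desmin, was 0.55 higher (limma adjusted p = 0.0062), Cspg4, the NG2 proteoglycan, 0.40 (limma adjusted p = 0.0056) and Notch3 0.42 (limma adjusted p = 0.0162), the last without its call when scrambled array 1 or 3 was left out. Their probe sets were at 0.42 and 0.68 for Des, 0.17 and 0.63 for Cspg4, and 0.095 and 0.75 for Notch3. With the spike-in and beta-actin covariates Cspg4 (0.35 in both) and Notch3 (0.39 and 0.38) were not called.

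Of 10 haematopoietic markers, which Cd34 and Ly6a also mark, 2 were higher and 0 lower, where 16.8% and 21.8% of all genes were. Their median was 0.23. Csf1r, the receptor of macrophage colony-stimulating factor, was 0.76 ± 0.084 higher (limma adjusted p = 4.0e-04), and Adgre1 0.36 (limma adjusted p = 0.0430), with its call lost without any 1 scrambled array. The Csf1r probe sets ranged from 0.40 to 1.35. With the covariates Adgre1 was not called, at -0.015 for the spike-in controls and 0.066 for beta-actin. Cd79a (0.31) and Kit (0.29) did not pass. Of 8 endothelial markers, 1 was higher and 0 lower, with a median of 0.24. That was Flt1, a receptor of vascular endothelial growth factor, at 0.48 ± 0.091 (limma adjusted p = 0.0052), which was not called with the spike-in (0.34) or beta-actin (0.36) covariate, while Kdr had 0.50 (limma adjusted p = 0.0506), Cdh5 0.25 and Vwf 0.23. The Flt1 probe sets ranged from 0.26 to 0.71. Of 10 osteoblast markers, 2 were higher and 3 lower, and the median was -0.033. Col1a1 was at 3.52 (limma adjusted p = 4.7e-07) and Alpl at 0.99 (limma adjusted p = 5.2e-04). Dlx5 was at -2.70 (limma adjusted p = 6.2e-05), Phex at -1.48 (limma adjusted p = 3.4e-05) and Col1a2 at -0.42 (limma adjusted p = 0.0325). Col1a2 was not followed with arrays left out or with the covariates. The Phex value averages probe sets at -3.24 and 0.29. The part of other cell types in the antigen differences was not tested, and in bulk RNA a change in the share of cells that carry an antigen and a change per cell cannot be told apart.

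**Figure D4:**
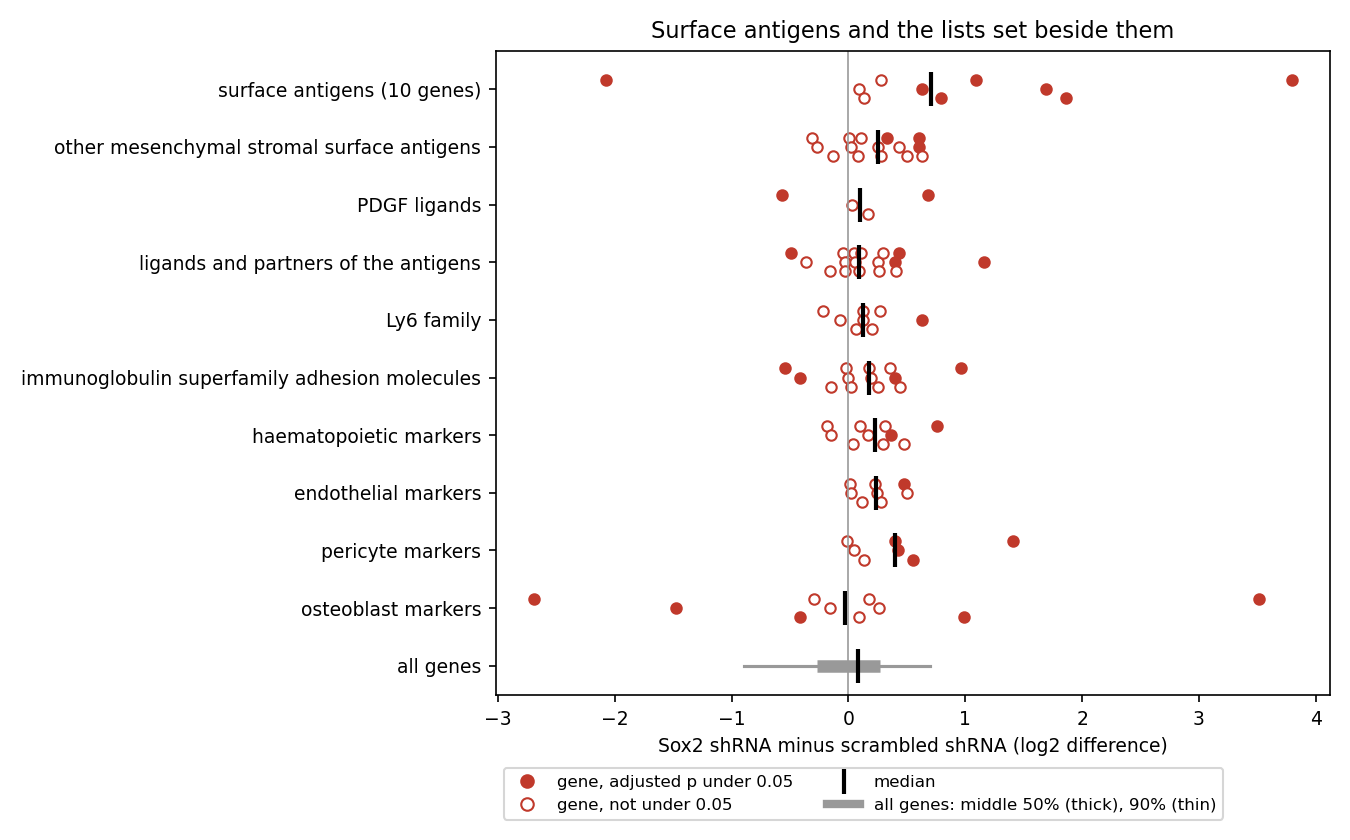
Log2 differences of the gene values, Sox2 shRNA minus scrambled shRNA (horizontal axis), for the 10 antigens and for the genes of the other lists, 1 point per gene, filled where the limma adjusted p was under 0.05. The antigens have a median of 0.71, the pericyte markers 0.40 and the osteoblast markers -0.033, beside 0.078 over all genes.

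The genes whose values over the 6 arrays lay nearest to those of 4 antigens, by the root mean square difference of the gene values, were also found among all genes. They were Speg (0.046), Fxyd5 (0.058) and Dact1 (0.084) for Ly6a. For Vcam1 they were Eif4g2 (0.069), Ifitm3 (0.078) and Phldb2 (0.11). For Mcam they were Slc22a23 (0.085), Spint1 (0.085) and Cx3cl1 (0.093), and for Pdgfra Fkbp11 (0.042), Ehd1 (0.048) and Abca1 (0.052). These distances, in log2 units, describe 6 arrays that fall into 2 groups, so any gene with a like difference between the groups lies near.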

How the data were processed

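RNA of 6 plates had been hybridised to 1-colour Affymetrix mouse arrays, 1 array per plate. Per the submitters' processing notes, GCOS 1.4 and RMA produced the values. The deposited values are on a log scale taken as log2, since RMA returns log2 values, and the log base is not stated. They had been centred per probe set, as seen in the values, which keeps differences between arrays and removes levels, so signal over background is unknown. The number of arrays limits the precision. The deposited tables, 2 in number, differed in 0 cells.

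Of the 22690 probe sets, 64 array controls, 578 naming several genes and 543 naming none were left out, in part overlapping, which left 21556. Of these 21181 were matched by Entrez number to RefSeq (GRCm38.p6), which updated 1735 symbols. Probe sets of a gene were averaged, giving 13213 genes. Differences were tested in R 4.3.3 by limma 3.58.1 (lmFit, then eBayes) without covariates, two-sided, adjusted by Benjamini-Hochberg over all features tested, at a threshold of 0.05. Each probe set minus the mean of the others of its gene was tested in the same way over the 13562 probe sets of the 5219 genes with more than 1. Pdgfra minus Pdgfrb was tested with an exact permutation test.

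Each probe set of each antigen is given, with Sox2, up to 4 genes of smallest adjusted p per list and the 3 nearest genes for 4 antigens. Col1a2, Tgfb1, Tgfb3 and Gdf2 are named in addition, from the main fit alone. The antigens and lists were chosen with earlier results of these data known, so counts and medians of lists are descriptions. Genes of the lists without a probe set of their own were not analysed here: Bglap, Ly6c1, Ly6c2, Ly6e, Ly6g, Ly6k and Gpihbp1. The fits were tested on simulated data with 50 changed features at each of the log2 sizes 0.5, 1, 2 and 3. That is a far smaller share than was called in these data, 14.6% of probe sets higher and 20.5% lower. The adjusted p threshold was therefore harder to pass in the simulation, and its rates are not the power of the fits above. At a log2 difference of 0.5, 28% of changed probe sets, 18% of genes and 4% of departures were recovered. At a difference of 1 these were 76%, 80% and 52%, so small changes can be missed. Alternatives were median centring, array weights, a mean-variance trend, robust eBayes, other probe set rules, stricter thresholds, 2 control covariates, a replicate block and leaving out each array.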

Additional observations from a re-analysis of the deposited data

How the results depend on the processing

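The 7 called antigen genes kept direction and call under every alternative, apart from Pdgfra and Pdgfrb, which are under 2-fold. Leaving out each array in turn gave 1519 to 3882 probe sets higher and 2847 to 4846 lower over all probe sets, against 3144 and 4413 with all 6, and 1155 to 2695 genes higher and 1944 to 3135 lower, against 2216 and 2874. The lowest counts came without scrambled array 3. The spike-in covariate gave 1217 probe sets higher and 1538 lower (961 and 1166 genes), the beta-actin covariate 1354 and 1971 (1059 and 1429 genes), an adjusted p under 0.01 1419 and 2693 (1058 and 1848 genes), and a 2-fold minimum 596 and 1066 (354 and 478 genes). Both covariates cost a residual degree of freedom and did not overlap between the groups. A call kept or lost with them therefore does not separate controls from hairpin. Antigen probe sets that departed from the others of their gene numbered 3, against 5 with a replicate block, 5 with array weights, 1 with a 2-fold minimum and 2 to 5 on leaving out an array. Departures within a gene cancel out, so these counts are not of separate results. Pdgfra minus Pdgfrb turned to -0.17 with the spike-in covariate and was 0.066 to 0.22 on leaving out an array; the cause was not tested.

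Same-numbered arrays of the groups had correlations of their deviations of 0.125, -0.020 and 0.173, against -0.242 to 0.187 for arrays of unlike number. The main fit did not pair the samples by number. The bioB, bioC and bioD values fell, and the beta-actin 5′ minus 3′ values rose, from array 1 to array 3 in both groups. Whether the numbers mark a shared batch was not tested. With the replicate block 9 antigen probe sets and 6 antigen genes were higher, Pdgfra 1421916_at passed (0.41, limma adjusted p = 0.0439), and Pdgfra minus Pdgfrb was 0.16. Calls over all probe sets with the block are not given here, so a general gain in calls cannot be told apart. In the lists, Icam1, Nt5e, Flt1, Ncam1, Nectin3, Cspg4, Bst1, Clec1b, Msn, Slurp1, F11r, Notch3 and Adgre1 lost their calls with both covariates and Tgfb2 with the spike-in covariate alone.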
